A study of Mus musculus with 10 samples.

Results

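The EMT-inducing transcription factors are the DNA-binding proteins known to drive epithelial-mesenchymal transition, the change in which epithelial cells lose their junctions and polarity and take on a migratory, fibroblast-like form. The 9 genes taken here were Snai1, Snai2, Snai3, Twist1, Twist2, Zeb1, Zeb2, Prrx1 and Foxc2. They were chosen by name, as the probe sets paired with 1 of these gene symbols and no other. All 9 had at least 1 such probe set, of 18193 genes that had one, and together they had 23 probe sets. A filter on dim probe sets, which kept those above the 40th percentile of their array on at least 2 arrays, left 18 of the 23. These stood for 8 of the 9 genes, and Foxc2 was not tested.

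SNAIL proteins (Snai1, Snai2, Snai3) and ZEB proteins (Zeb1, Zeb2) are zinc-finger factors that bind E-box sequences in the promoters of epithelial genes such as Cdh1 and recruit co-repressors there. TWIST proteins (Twist1, Twist2) are helix-loop-helix factors that bind DNA as dimers with E proteins, while Prrx1 is a homeodomain factor and Foxc2 a forkhead factor of embryonic mesenchyme. In mammary tumours these factors are known for their links to invasion and relapse.

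The study measured RNA in 5 mouse mammary tumour cell lines, with 2 arrays per line and 10 in all. M1 to M4 are the mesenchymal lines and were each established from a different relapsed tumour, which had arisen in a female FVB/N mouse given an injection of E cells. E is an epithelial line from a mammary adenocarcinoma of a female FVB/N-TgN(MMTVneu)202Mul mouse, in which the neu oncogene is driven by the MMTV promoter. By the labels all 5 lines go back to the same MMTV-neu tumour, through the injected E cells for the M lines, and all were grown in RPMI medium with 10% FBS. There was 1 epithelial line, and each M line is a single line. The labels do not say if both arrays of a line stem from separate cultures. The p-values measure only the spread between arrays of the same line, pooled over the 5 lines and drawn toward that of other genes. That spread may be technical.

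The line labels were set against 12 marker genes. Of 6 epithelial markers, 6 fell in the mean of the M lines, and Epcam, an epithelial adhesion molecule, had line means of 2.25 to 3.55 in the M lines against 10360 in E. Krt8, a keratin of simple epithelia, was the exception within lines: it fell in M1 and was not called in the other M lines, where the log2 change was -0.01 (M2), -0.52 (M3) and -0.80 (M4). Of 6 mesenchymal markers, 5 rose, among them S100a4, a calcium-binding protein, Cdh2, N-cadherin, and Fn1, with a log2 change of 2.36. Vim, the intermediate filament protein vimentin, did not pass, with line means of 7488 to 16510 in the M lines against 9644 in E. The array medians ran between 22.7 and 35.7 signal units, and the E arrays were the brightest by their hybridization controls as well. Under the deposited scaling the median change of all 14840 genes tested was -0.207 on the log2 scale in the M line mean minus E. After quantile normalization it was 0.0414.

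Values below are deposited signals on a linear scale, and changes are differences of log2(signal + 32) fitted by limma across all 14840 genes. Calls required a change of 2-fold or more and an adjusted p (Benjamini-Hochberg) under 0.05. In every contrast between lines each gene past the fold threshold also had an adjusted p under 0.05, with a highest value of 6.79e-06 in the mean contrast, so the fold threshold alone decided which genes were called. The changes of the 4 M lines share the same 2 E arrays. In RNA from whole cultures, fewer cells expressing a gene and less RNA per cell cannot be told apart.

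Of the 8 members tested, 7 rose and 1 fell in the M line mean. Across all genes tested 21.8% were called there: 7.34% of all genes tested rose and 14.5% fell. Twist2, Snai2, Prrx1 and Zeb1 had the largest changes, Zeb2 an intermediate one, and Snai1 and Twist1 the smallest rises. Snai3 was the member that fell. Ranked by rise among the 14840 genes, Twist2 stood at 49, Snai2 at 57, Prrx1 at 82, Zeb1 at 88, Zeb2 at 419, Snai1 at 701 and Twist1 at 881. The members that rose were dim in E, where the brighter E array placed them between the 26.5 and 45.5 percentile of all probe sets. The size of their change therefore depends on the pseudocount of 32. The 7 that rose had at most 1 E array above the filter, so they could not have passed it without the M arrays. A filter passed only through the bright lines favours a difference from E, so these rises are not independent of the filter. It does not fix a 2-fold change. Zeb1 probe set 1446127_at passed that way, changed by 0.38 and was not called.

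**Figure D1:**
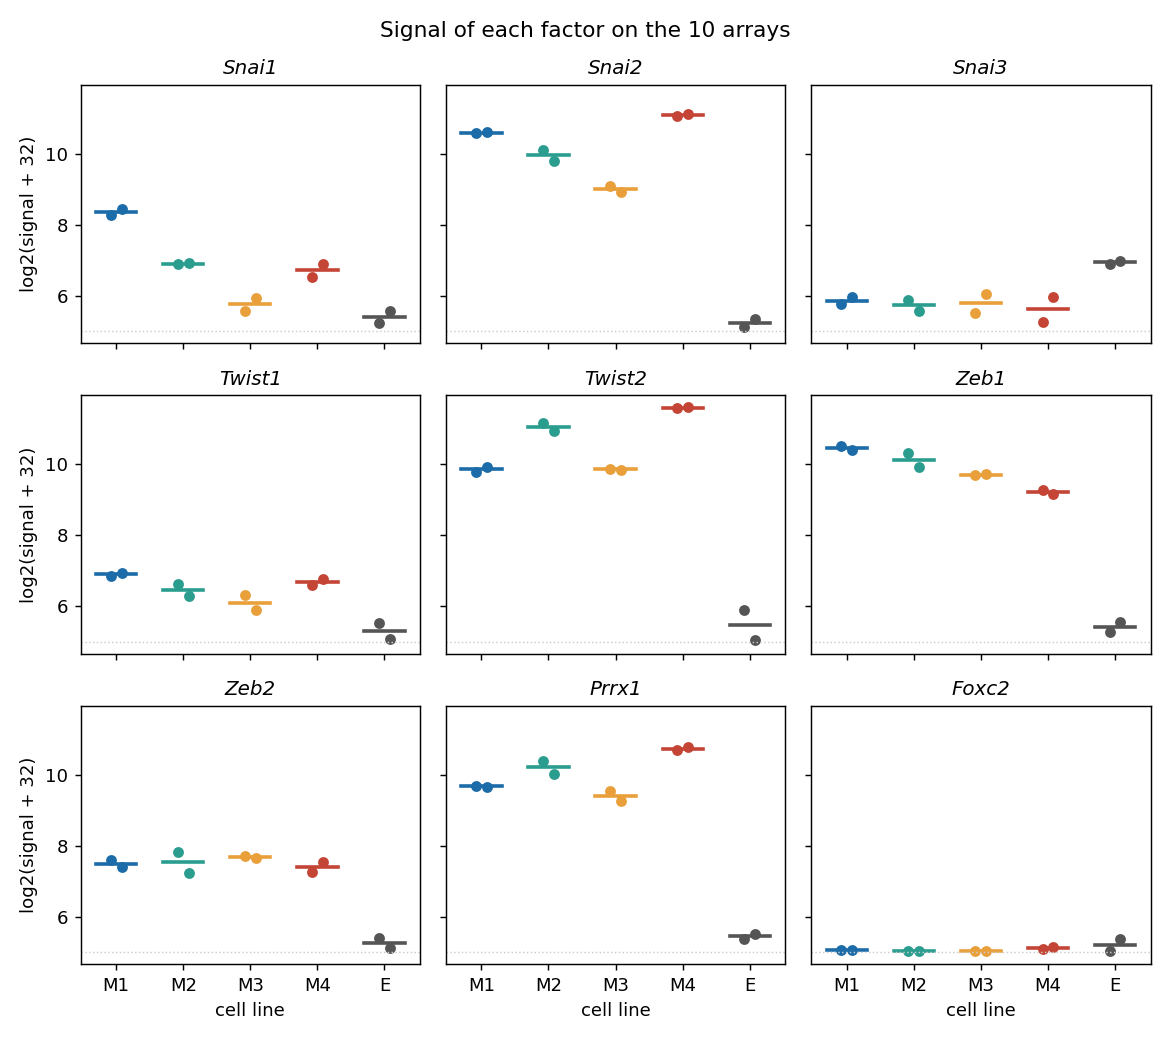
log2(signal + 32) of each member's brightest probe set by cell line, with the M lines left of E. Each point is an array, each bar the mean of the 2 arrays, and the dotted line a signal of 0. The signals of Twist2, Snai2, Zeb1 and Prrx1 are above 457 on every M array and below 29 on both E arrays, while Snai3 is highest in E.

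Among the SNAIL factors, Snai2 (SLUG) was the one with the large change. Its probe set 1447643_x_at gave 1494.2 and 1522.7 in M1, 1065.1 and 859.2 in M2, 515.2 and 457.3 in M3, and 2116.8 and 2198.7 in M4, against 2.8 and 8.8 in E. Every M array lay above both E arrays. The change was 4.93 ± 0.126 (SE) in the mean of the M lines (limma, adjusted p = 3.86e-35), and M1 changed by 5.35, M2 by 4.71, M3 by 3.78 and M4 by 5.86. The x in the name of that probe set marks probes that may bind other transcripts. A separate Snai2 probe set, 1418673_at, had line means between 102.8 and 409.2 in the M lines against 4.95 in E, a change of 2.89, and it put the lines in the same order.

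Snai1 (SNAIL), which represses Cdh1 in early development, differed most between the M lines. Its signal was 275.0 and 318.4 in M1, 86.4 and 88.5 in M2, 15.3 and 30.0 in M3, and 61.3 and 87.1 in M4, against 5.6 and 15.9 in E. M1 stood well above the others, and M3 overlapped E, since its lower array was below the higher E array. The mean change was 1.53 ± 0.147 (SE, limma adjusted p = 8.28e-13), and M1 changed by 2.95, M2 by 1.49, M3 by 0.35 and M4 by 1.31. The M3 change did not pass (limma adjusted p = 0.105). The mean change was no longer called with a pseudocount 4 times as large (0.73), with values below 64 set to 64 (0.72), or when limma was fitted to 5 line means (adjusted p = 0.32). The calls in M2 and M4 were also lost with the larger pseudocount (0.64 in M2 and 0.54 in M4). With values below 64 set to 64 these changes were 0.45 in M2 (limma adjusted p = 0.053) and 0.22 in M4 (0.289), neither called.

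Snai3 (SMUC), the least studied of the SNAIL proteins, ran the other way. Its probe set 1456796_at gave 22.5 and 30.8 in M1, 27.4 and 16.0 in M2, 14.2 and 34.6 in M3, and 6.4 and 30.9 in M4, against 88.3 and 95.0 in E. No M array reached the E arrays, and the M arrays lay near the background. The change was -1.19 ± 0.168 (SE, limma adjusted p = 2.65e-08). It was -0.91 after quantile normalization, -0.97 after scaling to the hybridization controls, -0.54 with a pseudocount 4 times as large and -0.52 with values below 64 set to 64, and under each of these it was no longer called. Single lines changed by -1.08 (M1) to -1.33 (M4), and the calls in M1, M3 and M4 were each lost without replicate 1 of that line (-0.98 in M1, -0.89 in M3 and -0.97 in M4). In every M line the Snai3 call was also lost after quantile normalization, with the larger pseudocount and with values below 64 set to 64. Its other probe set was below the filter.

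Both TWIST genes rose. Twist2 (DERMO1) had 855.5 and 940.4 in M1, 2249.8 and 1938.3 in M2, 907.3 and 888.2 in M3, and 3039.6 and 3080.3 in M4, against 28.1 and 1.3 in E. M4 and M2 were the high lines, M1 and M3 lay close together, and none overlapped E. The change was 5.11 ± 0.138 (SE, limma adjusted p = 3.76e-34), and M1 changed by 4.38, M2 by 5.57, M3 by 4.38 and M4 by 6.11.

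Twist1, a regulator of mesoderm and neural crest, had far smaller changes on its own scale. Its signal was 83.8 and 91.0 in M1, 67.2 and 45.9 in M2, 47.6 and 27.2 in M3, and 65.2 and 76.2 in M4, against 14.1 and 1.7 in E. The M arrays all lay above the E arrays, with M3 nearest to them. The mean change was 1.23 ± 0.155 (SE, limma adjusted p = 1.45e-09), and M3, at 0.80, was not called. It was called in M3 after median centring (1.02), with a pseudocount of 8 (1.59), without E replicate 1 (1.03) or without M3 replicate 2 (1.01). The call in M2 (1.16) was lost without E replicate 2 (0.93) or M2 replicate 1 (0.98). The mean change was lost with a pseudocount 4 times as large (0.48), with values below 64 set to 64 (0.16), and on 5 line means (limma adjusted p = 0.061). The calls in M1, M2 and M4 were also lost with the larger pseudocount (0.67, 0.44 and 0.55) and with values below 64 set to 64 (0.45, 0.04 and 0.14).

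The ZEB genes both rose, with different patterns over the lines. Zeb1 had 1417.9 and 1320.5 in M1, 1236.5 and 932.3 in M2, 796.1 and 813.8 in M3, and 588.5 and 545.7 in M4, against 7.1 and 15 in E. Its signal was highest in M1 and lowest in M4 among the M lines, and all were far above E. The change was 4.45 ± 0.130 (SE, limma adjusted p = 9e-33). Of its other probe sets, 1443005_at changed by 0.97 and 1446127_at by 0.38, neither of them called, and the remaining one was below the filter.

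Zeb2 (SIP1), a partner of SMAD proteins, was the most even member among those that rose. Its probe set 1456389_at gave 160.4 and 137.8 in M1, 193.6 and 120.2 in M2, 177.4 and 168.7 in M3, and 122.2 and 153.2 in M4, against 10.5 and 2.6 in E. The M lines overlapped each other and stood clear of E. The change was 2.27 ± 0.145 (SE, limma adjusted p = 5.78e-19), and single lines lay between 2.14 in M4 and 2.42 in M3. The M4 change was 0.98 and not called with the larger pseudocount. Probe sets 1434298_at (1.93) and 1422748_at (1.44) were also called, 1458941_at (0.07) was not, and 1 was below the filter.

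Prrx1, a homeodomain factor of limb and craniofacial mesenchyme, rose in every M line. Its probe set 1425528_at gave 788.3 and 781.2 in M1, 1308.9 and 1006.4 in M2, 707.0 and 586.2 in M3, and 1619.9 and 1728.2 in M4, against 9.9 and 13.8 in E. M4 was the highest line and none overlapped E. The change was 4.55 ± 0.128 (SE, limma adjusted p = 2.22e-33). Its other 4 kept probe sets changed by 2.31 to 3.14, and each was called.

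Foxc2, which acts in lymphatic and mesenchymal development, could not be placed. Its signal was 1.3 and 1.8 in M1, 0.7 and 1.2 in M2, 1.1 and 1.2 in M3, and 2.5 and 3.6 in M4, against 1.1 and 9.4 in E. Every array was under the filter, so no change was detectable with this probe set.

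**Figure D2:**
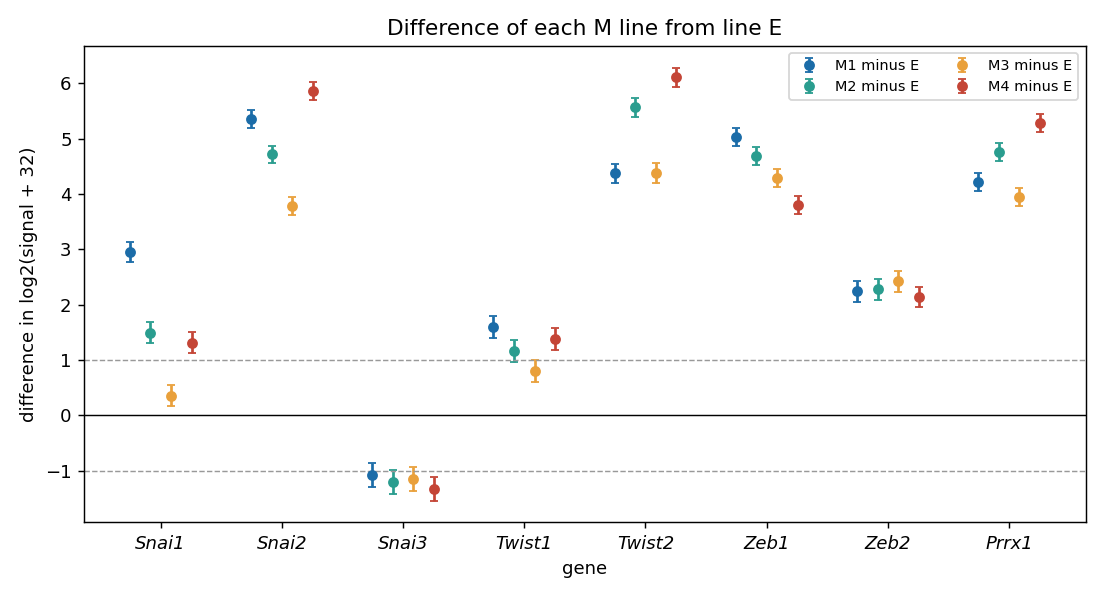
Difference of each M line from E in log2(signal + 32) for each tested member, with points for the estimates, bars for the SE and dashed lines at a 2-fold change. Snai2, Twist2, Zeb1 and Prrx1 are above 3.7 in every line, Snai1 spans 0.35 to 2.95, and Snai3 is below -1 throughout.

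Line by line, 8 of 8 tested members passed in M1, 7 of them higher, beside 21.1% of all genes called (8.6% higher, 12.5% lower). The members also passed 8 of 8 in M2, beside 20.4% of all genes (8.58% higher, 11.8% lower). In M3, 6 of 8 passed beside 27.5% of all genes (7.7% higher, 19.8% lower), and Snai1 and Twist1 were the exceptions. In M4, 8 of 8 passed beside 26.8% of all genes (6.65% higher, 20.1% lower). When all kept probe sets were fitted on their own, 14 of the members' 18 rose, 1 fell and 3 were not called. Of all 32978 kept probe sets, 5.49% rose and 12% fell. The members' probe sets that rose had at most 1 E array above the filter and could not have passed it without the M arrays. The counts of rises by line and by probe set are therefore not independent of the filter.

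**Figure D3:**
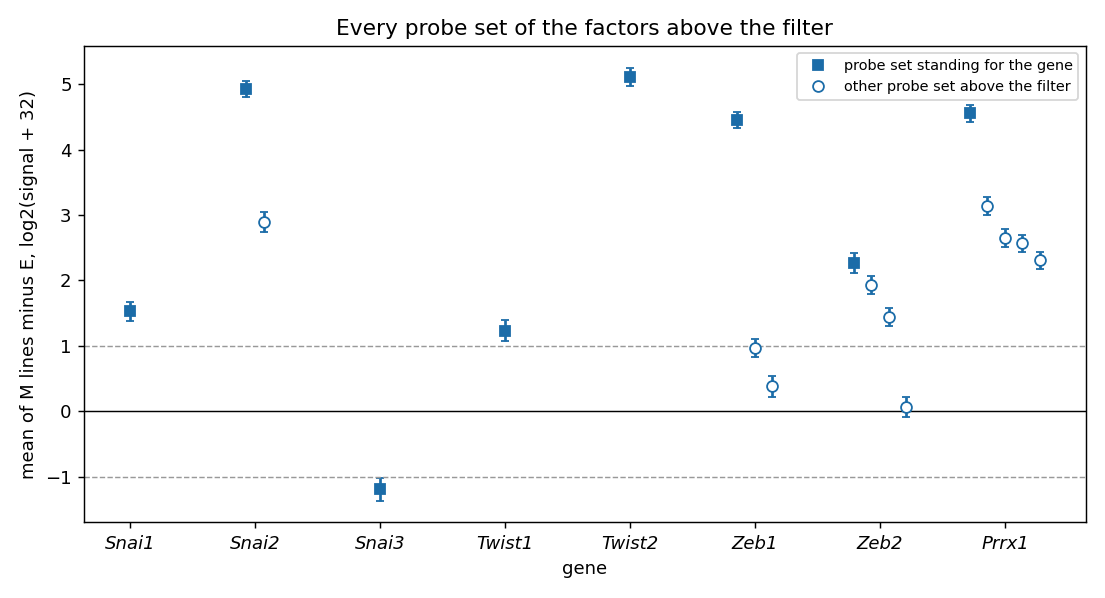
Difference between the M line mean and E in log2(signal + 32), with its SE, for each of the 18 kept probe sets; filled squares are the probe sets that stand for the gene and dashed lines mark a 2-fold change. The 5 Prrx1 probe sets lie between 2.31 and 4.55, while those of Zeb1 spread between 0.38 and 4.45 and those of Zeb2 between 0.07 and 2.27.

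Whether the relapse lines differed from each other was tested with a moderated F test across M1, M2, M3 and M4. It called 6 of the 8 members, where it called 60.7% of all genes tested, so the share is near the background. Snai1 (limma adjusted p = 2.26e-15), Snai2 (4.5e-15), Twist2 (2.43e-13), Prrx1 (2.86e-09), Zeb1 (6.55e-08) and Twist1 (0.00312) passed. Snai3 (0.75) and Zeb2 (0.583) did not, although Zeb2 passed after quantile normalization (0.035). Twist1 did not pass without M3 replicate 2 (0.0784) or without line M3 (0.141).

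The lines did not rank the members alike. By the probe sets that stand for the genes, M1 had the highest mean for Snai1, Zeb1 and Twist1, and M4 for Snai2, Twist2 and Prrx1. Except for Snai1, the highest line was within 2-fold of the next. M2 minus M1 was -0.34 for Zeb1 (limma adjusted p = 0.134), and M4 exceeded M2 by 0.54 for Twist2 and 0.53 for Prrx1. For Twist1, M4 minus M1 was -0.22 and not called, and its sign turned after quantile normalization (0.04) and after scaling to the hybridization controls (0.09). The Prrx1 probe set 1439774_at put M2 highest, where its line mean was 395.2, against 334.2 (M4), 287.7 (M3) and 179.2 (M1). The dim Zeb1 probe set 1446127_at put M4 highest, with a line mean of 15.45 against 14.55 in M1. Snai1 in M2 was lower than in M1 by a log2 difference of -1.46 (limma adjusted p = 1.99e-08, 4.54% of all genes called in that pair). It was also lower than in M1 in M3 (-2.60) and in M4 (-1.64), and lower in M3 than in M2 (-1.14), a call lost without M3 replicate 1 (-0.95), with a pseudocount 4 times as large (-0.52) and with values below 64 set to 64 (-0.45, limma adjusted p = 0.0794). The M2 minus M1 call was also lost with the larger pseudocount (-0.98). M4 and M2 differed by -0.18 (M4 minus M2, adjusted p = 0.505), and M4 exceeded M3 by 0.96, short of the fold threshold. That last difference was called after quantile normalization (1.12), after scaling to the hybridization controls (1.11), with a pseudocount of 8 (1.45), and without M3 replicate 2 (1.16) or M4 replicate 1 (1.14).

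For Snai2, M4 was above M3 by 2.08 (limma adjusted p = 2.3e-15, 10.3% of all genes called) and above M2 by 1.15 (6.32% called). M3 was below M1 by a difference of -1.57 (11% called). Neighbours in the order M4, M1, M2, M3 were within 2-fold of each other, except that M3 minus M2 was called without M2 replicate 2 (-1.08) or M3 replicate 1 (-1.01). The M4 minus M2 difference was 0.92 with the mean of the kept probe sets and 1.00 without M2 replicate 2, and was then not called.

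Twist2 was higher in M4 than in M1 by 1.74 (limma adjusted p = 1.69e-11, 8.96% of all genes called) and than in M3 by 1.73. It was higher in M2 than in M1 by 1.19, and lower in M3 than in M2 by a difference of -1.19 (7.29% called). After quantile normalization the M3 minus M2 difference was -0.91 and not called. M3 and M1 differed by 0.001 (adjusted p = 0.997).

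For Prrx1, M4 exceeded M3 by 1.33 (limma adjusted p = 2.21e-09) and M1 by 1.06 (4.75e-07). The M4 minus M1 difference was 0.98 with a pseudocount 4 times as large and 0.96 with the mean of its kept probe sets, neither called. Zeb1 was lower in M4 than in M1 by a difference of -1.23 (limma adjusted p = 2.79e-08). That difference was -0.79 after quantile normalization, -0.81 after scaling to the hybridization controls and -0.52 with the mean of the kept probe sets, and was then not called. M4 minus M2 was -0.89 for Zeb1, and was called only without M2 replicate 2 (-1.08). For Twist1 no pair was called, and M3 minus M1 (-0.80) was called without M3 replicate 1 (-1.01) or with a pseudocount of 8 (-1.11).

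**Figure D4:**
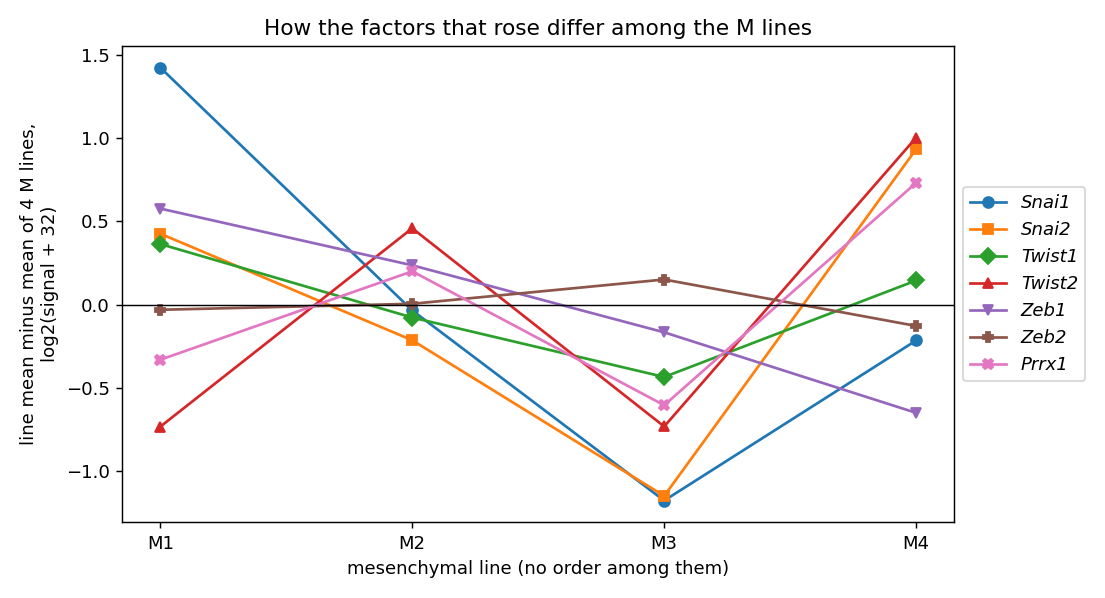
Line mean of log2(signal + 32) minus the mean of the 4 M lines, for the 7 members that rose; the connecting lines only join the values of a gene, since the M lines have no order. Snai1 spans 2.60 and Snai2 2.08 between their highest and lowest lines, while Zeb2 spans 0.28.

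Over the 10 arrays, the gene most like each member by Pearson r was Cxcl12 for Snai1 (0.988), Timp1 for Snai2 (0.992), Pdgfra for Twist2 (0.994), Prrg1 for Zeb1 (0.999), Arsa for Zeb2 (0.996), Slit2 for Prrx1 (0.998), Medag for Twist1 (0.981) and Prpf40b for Snai3 (0.976). These are descriptions, since the 10 arrays share the split between the M lines and E.

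The epithelial genes that SNAIL and ZEB factors are known to repress fell together. Of 24 with a probe set, 23 were tested, and 23 of 23 fell in the mean of the M lines, with a median change of -4.61 beside -0.207 over all genes tested. The list was chosen with earlier results of these data known, and Cdh1, Epcam, Cldn3, Cldn7 and Krt18 are also label checks. The count is therefore a description. The largest falls were in Epcam (-8.21), the claudins Cldn3 (-7.54) and Cldn7 (-7.35), which seal tight junctions, and the keratin Krt18 (-7.33). Cdh1, E-cadherin, had line means of 5.45 to 71.35 in the M lines against 3501 in E, a change of -5.86 ± 0.140 (SE, limma adjusted p = 2.86e-36).

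The E-box word bound by SNAIL and ZEB proteins was looked for in RefSeq promoters of build GRCm38.p6, taken as 250 bases before to 50 after a gene's start. The word is CACCTG, or CAGGTG when read on the other strand. It was in 6640 of all 32851 promoters (20.2%) and in 16 of the 22 promoters (72.7%) held for the repressed epithelial genes. Those 22 belong to 16 of the 25 genes on that list. That list was drawn up from known targets, so its share is not independent of the word. It was in 1 of the 8 promoters (12.5%) held for the members, that of Snai1. These 8 belong to 5 of the 9 members, with 4 of them for Zeb2. No promoter was held for Snai2, Snai3, Zeb1, Foxc2 or Cdh1. The promoters below are shown because they hold the most words among the repressed genes, or belong to the gene with the largest fall or to the member; words are in capitals and each sequence is read 5′ to 3′ on the gene's strand.
Crb3, a polarity protein, chr17:57061951-57062250, + strand: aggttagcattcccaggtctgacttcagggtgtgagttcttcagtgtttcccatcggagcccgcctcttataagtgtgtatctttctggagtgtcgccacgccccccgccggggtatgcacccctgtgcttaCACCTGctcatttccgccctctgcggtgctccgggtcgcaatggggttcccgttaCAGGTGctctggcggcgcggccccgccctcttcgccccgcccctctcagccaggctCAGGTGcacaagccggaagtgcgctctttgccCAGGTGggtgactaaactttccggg
Ap1m2, a subunit of epithelial sorting coats, chr9:21312284-21312583, - strand: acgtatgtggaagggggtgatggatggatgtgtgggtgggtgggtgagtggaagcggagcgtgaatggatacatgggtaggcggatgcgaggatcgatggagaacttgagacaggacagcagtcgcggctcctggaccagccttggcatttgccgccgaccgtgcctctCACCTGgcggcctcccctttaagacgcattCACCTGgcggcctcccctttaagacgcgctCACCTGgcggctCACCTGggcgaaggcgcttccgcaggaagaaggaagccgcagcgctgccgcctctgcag
Patj, a tight junction scaffold, chr4:98395576-98395875, + strand: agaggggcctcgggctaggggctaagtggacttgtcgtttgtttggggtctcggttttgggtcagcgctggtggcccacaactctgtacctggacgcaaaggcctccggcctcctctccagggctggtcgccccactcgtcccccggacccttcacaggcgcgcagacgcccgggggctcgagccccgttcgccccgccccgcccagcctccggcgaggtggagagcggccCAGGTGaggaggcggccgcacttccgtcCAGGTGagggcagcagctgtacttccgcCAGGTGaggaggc
Epcam, chr17:87635729-87636028, + strand: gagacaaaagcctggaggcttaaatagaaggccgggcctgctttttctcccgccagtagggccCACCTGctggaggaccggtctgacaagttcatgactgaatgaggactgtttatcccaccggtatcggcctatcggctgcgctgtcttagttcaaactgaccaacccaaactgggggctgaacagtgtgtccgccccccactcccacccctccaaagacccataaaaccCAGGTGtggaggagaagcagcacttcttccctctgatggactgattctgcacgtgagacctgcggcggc
Snai1, chr2:167537945-167538244, + strand: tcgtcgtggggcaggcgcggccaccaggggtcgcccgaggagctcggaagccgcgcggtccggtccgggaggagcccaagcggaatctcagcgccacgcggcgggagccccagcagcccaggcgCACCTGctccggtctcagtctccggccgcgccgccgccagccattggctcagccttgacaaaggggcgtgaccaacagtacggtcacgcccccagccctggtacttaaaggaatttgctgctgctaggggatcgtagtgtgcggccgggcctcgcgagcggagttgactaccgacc

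In the promoters shown, Crb3 and Ap1m2 hold 4 words each, Patj 3, Epcam 2 and Snai1 1, at -126 from its start. For Crb3, with 2 promoters held, and Patj, with 3, the promoter with the most words is shown. A match is only a description of these letters.

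Epithelial factors known to oppose the inducers also fell: 13 of 14 fell, with a median of -2.36. They included Elf5 (-7.17), a luminal ETS factor, Esrp1 (-5.50), an epithelial splicing regulator, Grhl2 (-4.07), a grainyhead factor, and Ehf (-4.00). Cebpb, at -0.38, was not called. Of the 10 promoters found for 8 of these 14 genes, 5 held the E-box word.

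Among mesenchymal genes known to rise in EMT, 16 of 20 tested rose and 0 fell, with a median of 4.10. This list holds all 6 mesenchymal label checks, so its count is not independent of them. The largest rises were S100a4 (8.15), the collagen cross-linking enzyme Lox (6.98), the receptor kinase Axl (6.0) and the collagen Col5a2 (5.66). Vim, at 0.31, was among those not called.

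The dimer partners of TWIST and their inhibitors were split. Tcf4 (2.16), an E protein, and Id3 (2.05), an inhibitor of helix-loop-helix dimers, rose. The inhibitors Id2 (-3.27) and Id1 (-2.96) fell, and the other 3 of 7 were not called.

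Of 16 near relatives tested, 4 rose and 0 fell: Prrx2 (5.13), the paralog of Prrx1, and the forkhead genes Foxf1 (4.37), Foxf2 (2.02) and Foxd1 (1.75). Of 14 co-repressors and chromatin partners, 0 rose and 5 fell, the largest falls being Ctbp2 (-2.36), a co-repressor of ZEB proteins, Ezh2 (-1.55), Dnmt1 (-1.36) and Smarca4 (-1.25). After quantile normalization 3 of these 14 fell. Of 14 genes for the turnover of SNAIL, TWIST and ZEB proteins, 0 rose and 2 fell, Prkd1 (-1.07) and Fbxw7 (-1.02). After quantile normalization 1 rose and 0 fell.

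Signals known to induce the factors were divided: 6 of 29 rose, 8 fell and 15 passed neither way. The 4 largest changes were falls, in Hes1 (-5.23), Tgfb2 (-4.00), Notch1 (-3.78) and Tgfb3 (-3.64). Hmga2 (3.33), a chromatin protein, and Tgfb1 (2.58), named after their values were seen, were among those that rose.

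**Figure D5:**
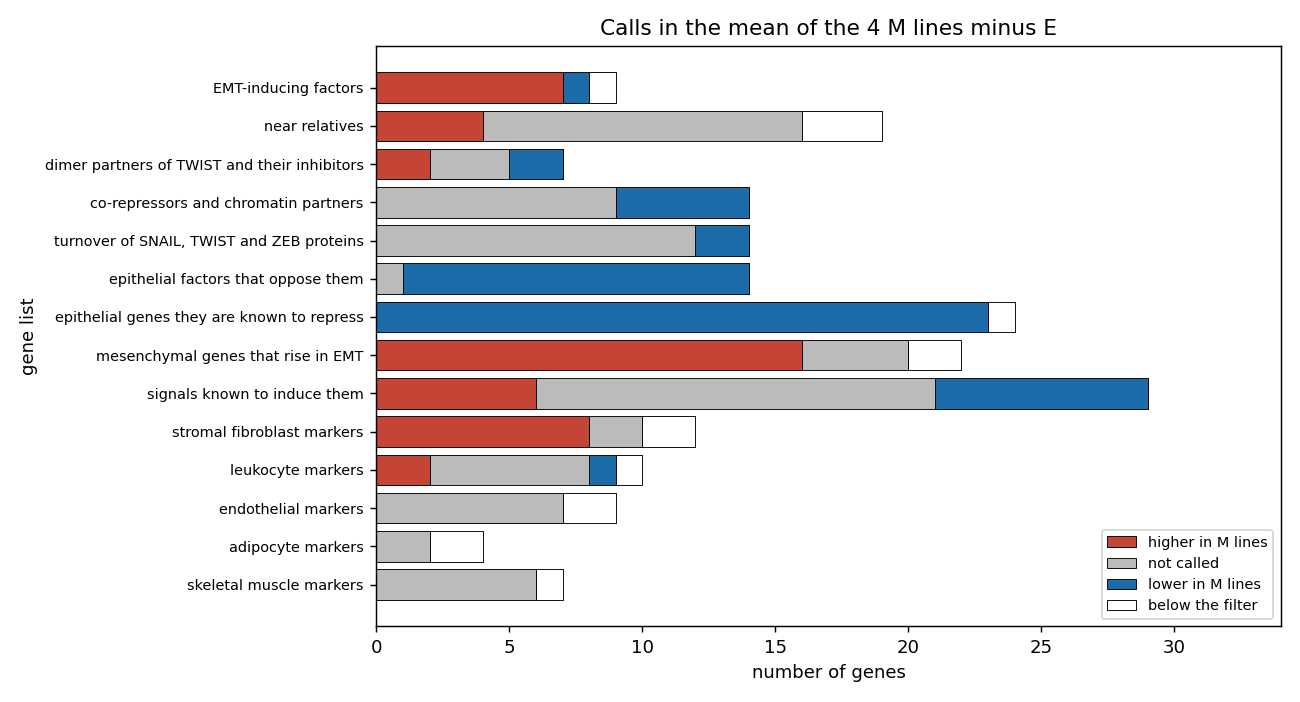
Number of genes in each list that were higher, not called or lower in the M line mean minus E, with those below the filter in white. The repressed epithelial genes were lower in 23 of 23 tested and the mesenchymal genes higher in 16 of 20 tested, while the inducing signals were divided.

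Markers of other cell types were read beside these results. Of 10 stromal fibroblast markers tested, 8 rose and 0 fell in the M line mean. The summed signal of the list was 11300 to 19890 on the M arrays against 377.5 to 486.4 on the E arrays. By line, 6 rose in M1 and 7 in each of M2, M3 and M4. Lum rose only in M4 (4.80), and Pi16 only in M2 (1.71) and M3 (2.67). Dcn, decorin, rose by 7.32, while Thy1 had line means of 9.10 to 16.75 in the M lines against 15.65 in E, and Dpt and Fap were below the filter. The part of fibroblast-type cells in the members' rise was not tested. Leukocyte markers summed to 652.3 to 1231 on the M arrays against 8178 to 8224 on the E arrays. Most of the E sum was Cd14 (-4.05), a receptor for bacterial lipopolysaccharide, and without it, left out after its value was seen, the other 9 genes summed to 419.1 to 660.5 on the M arrays against 231.5 to 259.8 on the E arrays. Of 9 leukocyte markers tested, Cd14 fell, and Itgb2 (2.46), an integrin subunit, and Coro1a (1.37), an actin-binding protein, rose. The pan-leukocyte gene Ptprc had line means of 5.10 to 15.10 in the M lines against 6.45 in E. The part of leukocytes in the members' changes was not tested. Endothelial markers summed to 145.5 to 349.2 on the M arrays against 184.3 to 241.1 on the E arrays, adipocyte markers to 31.8 to 357.6 on the M arrays against 25.0 to 34.4 on the E arrays. Muscle markers summed to 92.0 to 181.1 on the M arrays against 128.9 to 163.7 on the E arrays. Of the genes tested in these 3 lists, 7 endothelial, 2 adipocyte and 6 muscle, 0 were called by limma in the M line mean. Still, 3 endothelial, 2 adipocyte and 2 muscle genes had an unadjusted p under 0.05 with changes under 2-fold. All of these but Cdh5 (limma adjusted p = 0.0642) also had an adjusted p under 0.05, the lowest being Plvap (5.13e-06) and Lpl (8.45e-06). Only the fold threshold left them uncalled. In single lines, the lipase gene Lpl rose in M4 (3.13), the line with the highest means of Snai2, Twist2 and Prrx1, and without Lpl the adipocyte sum was 27.6 to 75.2 on the M arrays against 20.9 to 31.0 on the E arrays. The endothelial gene Cdh5 rose in M2 (1.09), and Plvap fell in M1 (-1.18) and M4 (-1.24). The part of these cell types in the members' changes was not tested.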

How the data were processed

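Each array's deposited file column holds 45101 probe set signals, linear intensity values that the authors made with GCOS 1.3, per the submitters' processing notes. How signals were computed, scaled or background-corrected is not given in the sources used. The deposited scaling was kept, 64 control probe sets were left out, and log2(signal + 32) was fitted in limma 3.58.1 (R 4.3.3) with 1 mean per line and a trended prior, giving 5 residual and 41.39 prior degrees of freedom. Each gene was represented by its brightest kept probe set. The number of arrays limits the precision. Alternatives changed the scaling, pseudocount, filter, probe set choice, arrays and lines. Replicate numbers did not pair the samples: replicate differences correlated between lines at -0.0711 to 0.0576, with 0 of 10 pairs over 0.1.

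Named were the 9 members, 7 label checks, up to 4 called genes per list with the largest changes, and, of the 3 genes most alike by Pearson r, the closest. Uncalled genes, Hmga2, Tgfb1, Lum, Pi16 and the genes of the promoters shown were named outside that rule, after their values or word counts were seen. The members and lists were chosen with earlier results of these data known. Listed symbols without a probe set of their own were not analysed here. Promoters came from RefSeq and were searched with Python 3.11.15.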

Additional observations from a re-analysis of the deposited data

Results flagged for a closer look

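The change from E differed between the M lines for 5 members, by the moderated F test of limma and by at least 2-fold in 1 or more pairs of lines. The adjusted p was 2.26e-15 for Snai1, 4.5e-15 for Snai2, 2.43e-13 for Twist2, 6.55e-08 for Zeb1 and 2.86e-09 for Prrx1. Of all genes tested, 60.7% passed the F test alone, so a pass of that test is common among these lines. The share of all genes that met both conditions was not computed. Single pairs of lines called 4.54% (M2 minus M1) to 11% (M3 minus M1) of all genes tested. Snai1 changed by 2.95 in M1 and 0.35 in M3, and Zeb1 by 3.80 in M4 and 5.03 in M1. Snai2 changed by 5.86 in M4 and 3.78 in M3, Twist2 by 6.11 in M4 and 4.38 in M1, and Prrx1 by 5.28 in M4 and 3.95 in M3.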

How the results depend on the processing

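With a pseudocount 4 times as large, the genes called were 2081 in the mean contrast (3237 as reported), 2055 in M1 (3134), 1970 in M2 (3022) and 2461 in M4 (3970), and the members called were 5 in the mean contrast, 5 in M2 and 4 in M4, against 8 each. With values below 64 set to 64, 5 members were called in the mean contrast, in M2 and in M4, against 8 each. Over all genes, 910 were then higher and 2209 lower in the mean contrast, against 1089 and 2148 as reported. The counts over all genes in M2 and M4 were slightly lower than reported. The members thus lost a larger share of their calls than all genes did under this setting. On 5 line means, 1572 genes were called. With every kept probe set fitted, the mean contrast gave 5774 calls, M1 5637, M2 5330, M3 7517 and M4 7249. Leaving out 1 array gave 3081 to 3530 genes and 8 members in the mean contrast, 3075 to 3317 and 7 to 8 in M1, 2953 to 3340 and 7 to 8 in M2, 3916 to 4412 and 5 to 7 in M3, and 3667 to 4407 and 7 to 8 in M4. The F test then called 7951 to 9687 genes and 5 to 6 members. The cause of these shifts was not tested.

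The reported split was 1089 genes higher and 2148 lower; it was 1425 and 1304 after quantile normalization, 1360 and 1396 after scaling to the hybridization controls, and 1273 and 1665 after median centring. With the replicate number as a block, the same 3237 genes and 8 members were called in the mean contrast; a block leaves the changes of a balanced design as they are, and the fold threshold decided the calls. The F test called 9322 genes with the block and 9007 without. The block raised the prior degrees of freedom to 522.4, against 41.39 without it, so its p-values are smaller. Of 2088 recomputed values of single members, 2017 were called in the same direction or uncalled both times. A further 56 lost their call, 15 gained one and 0 called values changed sign, while 38 values uncalled both times had the opposite sign. Many of the 2088 could not move, because leaving out an array or line outside a contrast leaves its change as it was. The 2017 therefore include values that were fixed in advance. Signals near the background limit what can be said of Snai1, Snai3, Twist1 and Foxc2. Leaving Cd14 out of the leukocyte sum, an alternative chosen after seeing the data, turned its direction.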
